A study of Mus musculus with 14 samples.

Results

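The genes described here code for the contractile apparatus of smooth and striated muscle. They comprise the alpha and gamma muscle actins *Acta1*, *Acta2* and *Actg2*, the thin filament regulators *Cnn1* (calponin), *Tagln* (transgelin), *Tpm1* and *Tpm2* (tropomyosins), the smooth muscle myosin chains *Myh11* and *Myl9*, and *Des*, the intermediate filament protein desmin. All probes on the array that carry one of these 10 gene names were taken, which gave 18 of the 41174 non-control probes. The set was chosen on measured values, because *Acta1* was lower in cells with the K314/315R mutant than in cells with wild type p65, so that difference is given as a description, with no test.

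Expression was measured with 14 one-colour mouse arrays, 1 per culture. All cells were *p65*(-/-) mouse embryonic fibroblasts (MEFs, of the NIH 3T3 type) that lack the NF-κB subunit p65. They had been infected with lentivirus that carried wild type p65, the acetylation-deficient mutants KTR or K314/315R, or the empty vector pTV, and were used as drug-selected pools and not as clones. In KTR 3 lysines of p65 are replaced by arginine, among them the lysine pair that is changed in K314/315R. After starvation overnight, wild type, KTR, K314/315R and pTV cells received TNFα at 30 ng/ml for 3 h. A further set of wild type cultures was measured at 0 h, without TNFα. K314/315R had 2 arrays and each other group 3. The replicates were isolated on different days.

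In muscle, actin filaments wound with tropomyosin slide along myosin to produce force, and calponin and transgelin bind the actin filament of smooth muscle. Fibroblasts in culture express several of the smooth muscle forms, with *Acta2* (alpha smooth muscle actin) and *Tagln* as the usual markers of the myofibroblast state. Many of these genes are controlled by serum response factor (SRF), which binds the CArG box of their promoters, and are induced by TGF-β, whereas NF-κB with its subunit p65 is best known as the activator of inflammatory genes after TNFα.

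The stretch before the start site of *Acta1* is shown because the report turns on this gene and that of *Myl9* because it holds both a CArG box and a κB site. Sequences are from RefSeq (GRCm38.p6), whose promoter table held 7 of the 10 genes, and each is written 5′ to 3′ on the strand of the gene, with capitals for the motifs found. Both motifs were searched on both strands, as were TATAAA and CATTCC, the core of the muscle MCAT element. For *Acta1* these are the 250 bases before the start, chr8:123894776-123895025, minus strand, with a CArG box, a CATTCC and a TATAAA in this order. For *Myl9* they are the 194 bases before the gene, chr2:156775214-156775407, plus strand, with a κB site and then a CArG box.
Acta1: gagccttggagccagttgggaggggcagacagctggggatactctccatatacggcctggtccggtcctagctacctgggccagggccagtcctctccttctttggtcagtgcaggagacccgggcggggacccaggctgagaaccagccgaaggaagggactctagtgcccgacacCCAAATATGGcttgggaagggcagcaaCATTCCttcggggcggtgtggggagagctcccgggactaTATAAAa
Myl9: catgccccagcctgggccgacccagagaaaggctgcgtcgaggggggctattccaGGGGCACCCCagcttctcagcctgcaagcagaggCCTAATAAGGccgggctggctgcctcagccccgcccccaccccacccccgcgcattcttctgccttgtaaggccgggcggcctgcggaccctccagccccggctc
Among 32851 mouse promoter windows of 250 bases, a CArG box occurred in 1.47%, a κB site in 7.25%, TATAAA in 12.4% and CATTCC in 12.6%. In the windows of the other 5 genes, *Des* held a κB site, *Acta2* and *Tpm1* each held the complement of CATTCC, and *Cnn1* and *Tpm2* held none of these letter patterns. All 250 bases for *Tpm1* and 212 for *Acta2* lay inside the span of the gene, downstream of its outermost start, as did 56, 32 and 29 for *Myl9*, *Cnn1* and *Tpm2*. A match is a stretch of letters, and binding was not measured.

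Levels are the log2 of the background-corrected signal of a probe over the 75th percentile of the same array, so that 0 is the level of that percentile and 1 unit is a 2-fold difference. They compare arrays at a probe and not probes with each other. Of the 18 probes 16, for 8 genes, reached well above background on all arrays of some group and entered the fit. *Myh11*, the smooth muscle myosin heavy chain, and *Des*, whose probe is printed 10 times, were well above background on 0 of 14 arrays. Their log2 levels lay between −6.94 and −3.68 for *Myh11* and between −6.46 and −4.87 for *Des* and have no order. Thus 2 genes that define differentiated muscle cells did not stand above background in these fibroblasts, whereas the brightest probes of *Acta2* and *Tagln* did on all 14 arrays.

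The 75th percentile ranged from 967 to 1442 intensity units, 49.9 to 57.7% of spots were well above background, and arrays of a group correlated with r between 0.984 and 0.995. Each of slides 1 to 3 carried 1 array of every group except K314/315R, whose 2 arrays shared slide 4, so slide and cell line cannot be told apart for K314/315R. The median log2 signal of the spike-in probes was 1.44 and 1.83 on its arrays and between −0.08 and 0.64 on the others. Of the fibroblast markers 9 of 10 were well above background on all 14 arrays. Of the endothelial markers 0 of 4, of the skeletal muscle markers 0 of 7, of the macrophage markers 0 of 5 and of the epithelial markers 1 of 5 were so, and *Des*, *Myog*, *Myf5*, *Myf6* and *Ckm* were so on none. *Myod1* was so on 10 arrays, *Chrna1* on 1, *Csf1r* on 13, *Cd68* on 6, *Krt5* on 13, *Krt14* on 12 and *Krt18* on 5. Of the vascular mural markers *Cspg4*, *Notch3* and *Mcam* were so on all and *Rgs5* and *Myocd* on none.

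*Acta1*, the alpha actin of skeletal muscle, had its highest levels in wild type cells, a slightly lower level in KTR, and its lowest levels in K314/315R and pTV. The log2 level was 2.57, 2.60 and 2.40 in the 3 wild type cultures at 3 h, and 2.55, 2.54 and 2.50 at 0 h. It was 2.27, 2.36 and 2.27 in KTR, 1.69 and 1.55 in K314/315R, and 1.28, 1.41 and 1.33 in pTV. Ordered by their means, the groups ran from wild type at 0 h (2.53 ± 0.03, SD, n = 3) and at 3 h (2.52 ± 0.11, SD, n = 3) through KTR (2.30 ± 0.05, SD, n = 3) and K314/315R (1.62 ± 0.10, SD, n = 2) to pTV (1.34 ± 0.07, SD, n = 3). Only the 2 wild type groups overlapped, and no array of the other 3 groups reached the range of its neighbour.

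The level of *Acta1* in K314/315R was lower than in wild type at 3 h by 0.90 on the log2 scale, a ratio of 0.536, and higher than in pTV by 0.28. In KTR, which carries the same lysine changes and 1 more, it was lower than in wild type by 0.22 and higher than in K314/315R by 0.68. These values describe the difference for which the gene was chosen, and the other comparisons were likewise not tested for it. With normexp background correction the difference of K314/315R from wild type was −0.63 and that of KTR from wild type turned to 0.10. In KTR over pTV *Acta1* was higher by 0.96 (SE 0.08), a 1.95-fold difference, also as a description, because genes of interest in the study were first limited to those higher in wild type than in pTV. Whether fewer cells express a gene or each cell holds less RNA cannot be told apart in these bulk samples.

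**Figure D1:**
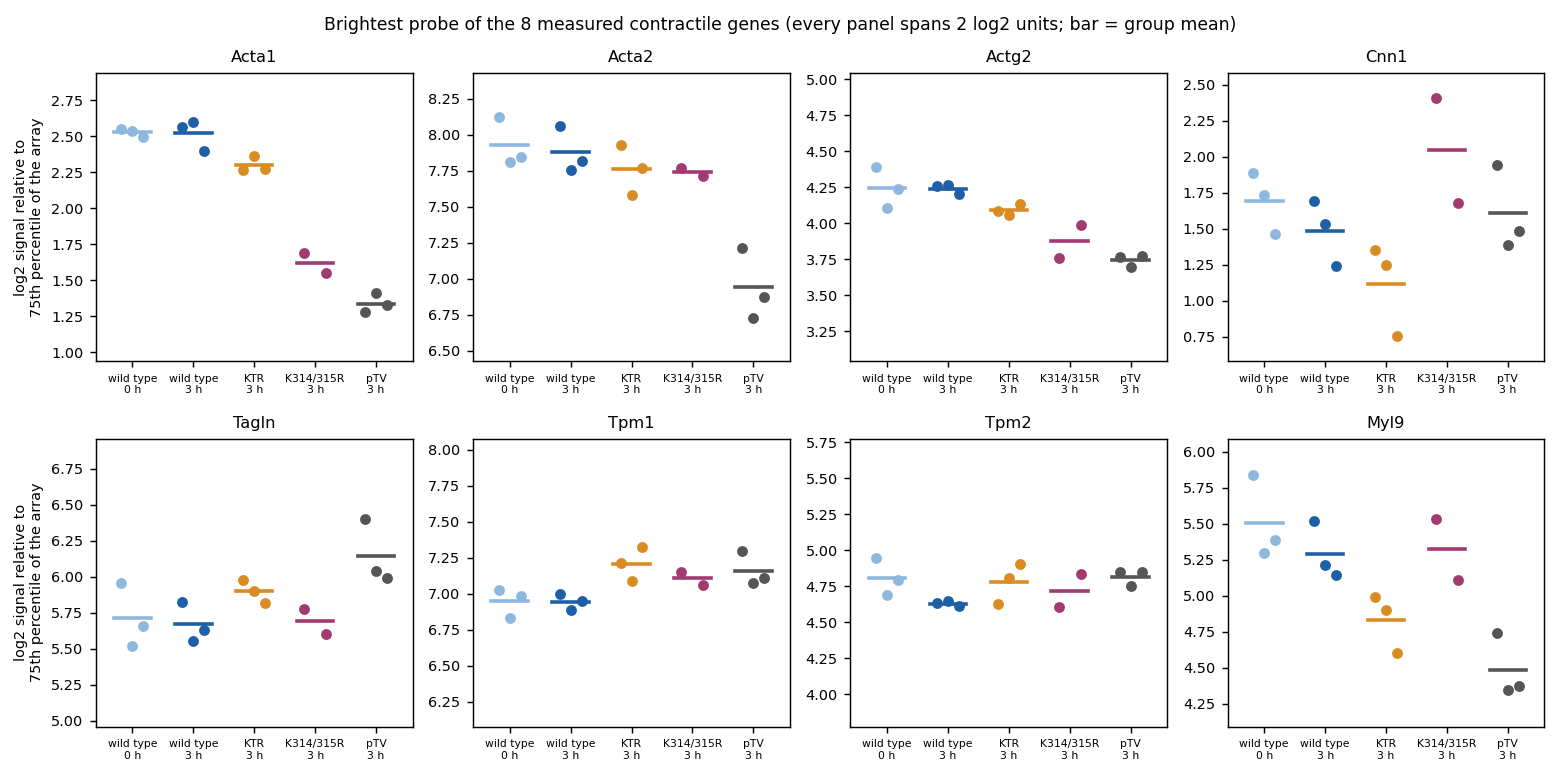
Level, as log2 signal over the array's 75th percentile (vertical axis), for the brightest probe of the 8 measured contractile genes in the 5 groups (horizontal axis). Each point is 1 array and each bar a group mean, and all panels span the same range. *Acta1* steps down from about 2.5 in wild type to 1.34 in pTV with K314/315R at 1.62, whereas *Acta2* is low in pTV alone.

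At its brightest probe *Acta2*, the alpha actin of smooth muscle, was higher in all cells with p65 than in pTV. It did not show there the step that *Acta1* had at K314/315R. The array has 5 probes for it, and the brightest is printed 10 times, with an SD of 0.03 to 0.25 on the log2 scale among its spots within an array. At that probe the log2 level was 8.06, 7.75 and 7.82 in wild type at 3 h, 8.13, 7.81 and 7.84 in wild type at 0 h, and 7.22, 6.73 and 6.88 in pTV. It was 7.93, 7.58 and 7.77 in KTR and 7.77 and 7.71 in K314/315R. The pTV arrays lay below all others. The other 4 groups overlapped with each other, except that both K314/315R arrays lay below all arrays of wild type at 0 h. Wild type exceeded pTV by 0.94 (SE 0.15, limma adjusted p = 7.78e-04), a 1.92-fold difference, and by 0.85, 1.02 and 0.94 within slides 1 to 3. KTR exceeded pTV by 0.82 (SE 0.15, limma adjusted p = 0.00231). K314/315R was above pTV by 0.80 and below wild type by 0.14, as a description.

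The other 4 *Acta2* probes differed in size. A_52_P210078 was higher in wild type than in pTV by 1.39 (limma adjusted p = 1.12e-05) and in KTR than in pTV by 1.49 (limma adjusted p = 2.05e-05, with 2 KTR arrays since the spot of KTR replicate 3 was marked as an outlier and left out). A_52_P239556 was higher in both by 1.05 (limma adjusted p = 0.012) and 1.48 (limma adjusted p = 0.00139), the former no longer passing without pTV replicate 2 (0.86) or wild type replicate 1 at 3 h (0.87). A_51_P450957 had overlapping groups and did not pass, at 0.28 for wild type (95% interval −0.13 to 0.69, limma adjusted p = 0.407) and 0.29 for KTR (95% interval −0.12 to 0.70, limma adjusted p = 0.35). The dimmest, A_52_P644232, was well above background on 3 of 3 wild type arrays at 3 h, 2 of 3 at 0 h, 1 of 3 in KTR and none in pTV and K314/315R. In wild type at 3 h it exceeded pTV at least 1.70-fold and K314/315R at least 1.95-fold, both as descriptions. The probe entered the fit only through wild type at 3 h, where it was highest. Its fitted difference from pTV (2.27, limma adjusted p = 0.00284) was favoured by this and used pTV signals not well above background. No conclusion is drawn from that p-value. This dim probe was thus the only 1 of the 5 at which K314/315R lay past the ratio below wild type.

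**Figure D2:**
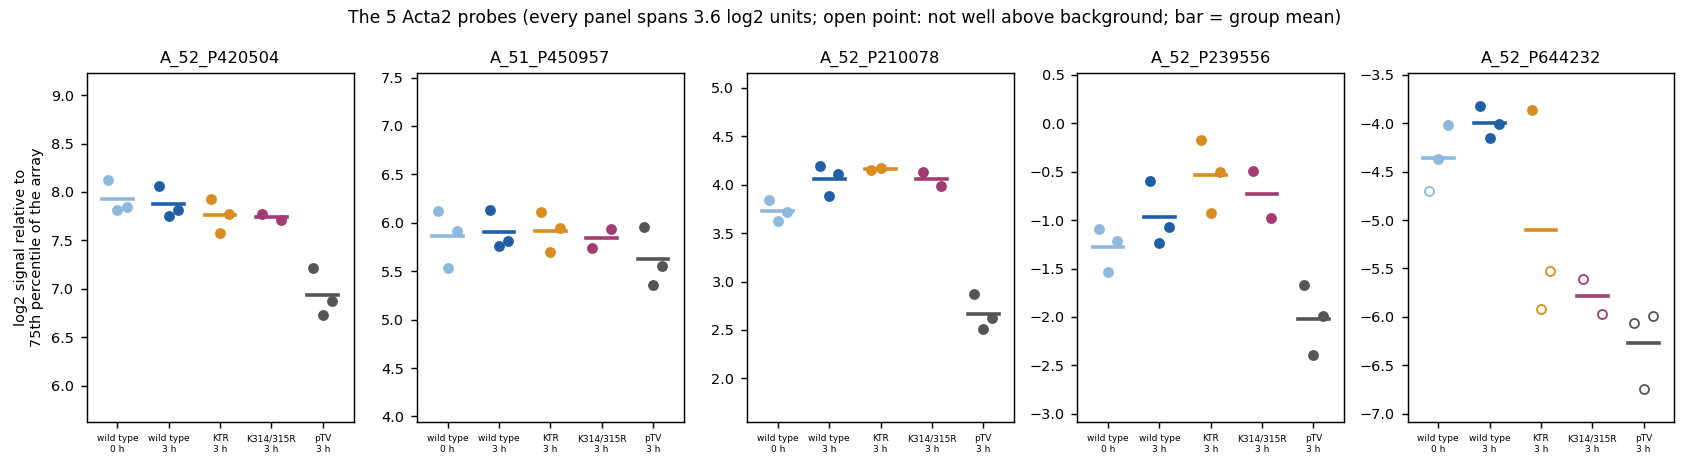
Level, as log2 signal over the array's 75th percentile (vertical axis), at the 5 probes for *Acta2*, from the brightest at the left to the dimmest at the right, in the 5 groups (horizontal axis). Points are arrays, open points were not well above background, and bars are group means. pTV has the lowest mean at the 4 brighter probes, by 0.28 below wild type at 3 h at the second probe and by 1.39 at the third.

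*Actg2*, the gamma actin of smooth muscle, followed the order of *Acta1* with smaller steps. Its log2 level was 4.25, 4.27 and 4.20 in wild type at 3 h, 4.39, 4.10 and 4.24 at 0 h, and 4.08, 4.06 and 4.13 in KTR. It was 3.76 and 3.99 in K314/315R and 3.76, 3.70 and 3.77 in pTV. K314/315R overlapped with pTV and lay below wild type at 3 h, by 0.37 as a description. Wild type exceeded pTV by 0.50 (SE 0.09, limma adjusted p = 0.00294), a 1.41-fold difference, and KTR exceeded pTV by 0.35 (SE 0.09, limma adjusted p = 0.0248). The latter no longer passed when KTR replicate 1 or 3 or pTV replicate 2 or 3 was left out, with adjusted p up to 0.0909 and differences of 0.32 to 0.36. Across the 14 arrays the levels of *Acta1* correlated with those of *Actg2* at r = 0.92 and with those of the brightest *Acta2* probe at r = 0.79. These coefficients describe arrays that fall into the groups above. The muscle actins are close relatives in sequence, and whether a probe also binds the RNA of another actin was not tested.

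Of the 8 probes for thin filament regulators none was higher in wild type or KTR than in pTV by the test. *Cnn1* varied most between cultures, with log2 levels of 1.69, 1.53 and 1.24 in wild type at 3 h, 1.89, 1.73 and 1.46 at 0 h, and 1.94, 1.39 and 1.49 in pTV. It was 1.35, 1.25 and 0.75 in KTR, all below pTV, and 2.41 and 1.68 in K314/315R. Wild type and pTV overlapped at *Cnn1* (difference −0.12, 95% interval −0.62 to 0.38, limma adjusted p = 0.819). KTR was below pTV by 0.49 on the log2 scale (limma adjusted p = 0.187, 0.0222 with a block for the replicate number and 0.0654 with slides as random effects) and below K314/315R by 0.93, a ratio of 0.526, as a description.

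*Tagln* was lower in wild type than in pTV at both of its probes. At the brighter, the log2 level was 5.83, 5.56 and 5.63 in wild type at 3 h, 5.96, 5.52 and 5.66 at 0 h, and 6.40, 6.04 and 5.99 in pTV. It was 5.98, 5.90 and 5.82 in KTR and 5.77 and 5.61 in K314/315R. All pTV arrays were above all other arrays. Wild type minus pTV was −0.47 (SE 0.14, limma adjusted p = 0.0389) at this probe and −0.63 (SE 0.19, limma adjusted p = 0.0431) at the other. Both calls were close to the threshold. Of the 14 fits that each left out 1 array, 9 and 4 passed, with adjusted p up to 0.133 and 0.13. KTR minus pTV was −0.24 and −0.35 and did not pass (limma adjusted p = 0.289 and 0.259).

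The tropomyosins *Tpm1* and *Tpm2* moved little. At its brightest probe *Tpm1* had log2 levels of 7.00, 6.88 and 6.95 in wild type at 3 h, 7.03, 6.83 and 6.99 at 0 h, 7.21, 7.09 and 7.32 in KTR, 7.15 and 7.06 in K314/315R and 7.30, 7.07 and 7.11 in pTV. Both wild type groups lay below the others. None of the 3 *Tpm1* probes passed the test in any tested comparison, with differences between −0.22 and 0.27 on the log2 scale, though the brightest passed in wild type over pTV with a block for the replicate number (−0.22, limma adjusted p = 0.0489) and not with slides as random effects (limma adjusted p = 0.0543). *Tpm2* at its brightest probe was 4.63, 4.64 and 4.61 in wild type at 3 h, 4.95, 4.69 and 4.79 at 0 h, 4.62, 4.80 and 4.91 in KTR, 4.60 and 4.84 in K314/315R and 4.85, 4.75 and 4.84 in pTV. There wild type was below pTV by 0.19 on the log2 scale without passing (limma adjusted p = 0.28). The second *Tpm2* probe, A_52_P315976, was lower than in pTV by 0.32 in wild type (limma adjusted p = 0.0415) and by 0.35 in KTR (limma adjusted p = 0.0246). Leaving out 1 array ended the first of these calls in 8 of 14 fits and the second in 4 of 14.

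*Myl9*, the regulatory light chain of smooth muscle myosin, was higher in wild type and K314/315R than in pTV, with KTR in between. The log2 level was 5.52, 5.21 and 5.14 in wild type at 3 h, 5.84, 5.29 and 5.38 at 0 h, and 4.99, 4.90 and 4.60 in KTR. It was 5.53 and 5.11 in K314/315R and 4.74, 4.35 and 4.37 in pTV. K314/315R overlapped with wild type at 3 h, and KTR lay below both and overlapped with pTV. Wild type exceeded pTV by 0.80 (SE 0.18, limma adjusted p = 0.0106), a 1.74-fold difference, which did not pass without wild type replicate 1 at 3 h (0.69, limma adjusted p = 0.0572). KTR was above pTV by 0.34 (95% interval −0.06 to 0.74, limma adjusted p = 0.256) and below wild type by 0.46 on the log2 scale (95% interval −0.86 to −0.06, limma adjusted p = 0.46). With a block for the replicate number both differences passed, at adjusted p of 0.0189 and 0.0447, and with slides as random effects neither did, at 0.082 and 0.127. As a description, K314/315R was above pTV by 0.83 and above KTR at *Myl9* (KTR minus K314/315R −0.49), whereas at *Acta1* KTR was the higher mutant. *Myl9* and *Acta1* thus put the mutants in opposite orders, and the difference between these orders was not tested.

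Counted over probes, differences between cells with p65 and pTV cells were found in both directions. Whether they come from p65 or from other differences between the selected pools was not tested. Without *Acta1*, which was not tested, 15 probes were compared in wild type over pTV at 3 h. Of these 6 were higher (4 of *Acta2*, 1 of *Actg2* and 1 of *Myl9*), against 8.03% of all tested probes, 3 were lower (2 of *Tagln* and 1 of *Tpm2*), against 6.8%, and 6 did not pass. With the 2-fold limit as well 3 were called, all of them *Acta2* probes, against 5.04%. The 6 higher and the 3 called include A_52_P644232, which entered the fit only through wild type at 3 h, where it was highest. In KTR over pTV 4 of 15 were higher (3 of *Acta2* and *Actg2*), against 9.27%, 1 was lower (*Tpm2*), against 5.89%, and 10 did not pass. With the 2-fold limit 2 *Acta2* probes were called, against 4.68%. The 2 comparisons share the pTV arrays. The median log2 difference of the 15 probes was 0.10 in wild type over pTV and 0.07 in KTR over pTV, beside −0.03 and 0.02 over all tested probes. With normexp background correction 1 of the 9 probes in wild type over pTV (A_52_P210078 of *Acta2*) and 1 of the 5 in KTR over pTV (the same probe) still passed.

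Of the 3 tested markers of vascular mural cells 2 were lower in wild type than in pTV. *Cspg4* was lower in wild type than in pTV by 1.50 on the log2 scale (limma adjusted p = 0.00118) and *Mcam* by 1.62 (limma adjusted p = 1.39e-05), whereas *Notch3* did not pass (0.13). The summed linear level of the 5 mural markers, with the 75th percentile as 1, was 4.47 to 5.60 in pTV, 1.60 to 2.05 in wild type at 3 h, 1.47 to 1.98 in KTR, 1.48 to 1.83 in K314/315R and 2.13 to 2.56 in wild type at 0 h. Among fibroblast markers *Pdgfrb* was higher in wild type by 1.99, *Pdgfra* by 1.77 and *Dcn* by 1.12, and *Thy1* was lower by 1.19, all passing. Of the epithelial markers *Krt18* (−2.53) and *Krt8* (−0.41) were lower and passed. *Krt18* was well above background on 5 of 14 arrays, so its difference rests in part on signals that were not. The summed level of the 7 skeletal muscle markers was 0.176 to 2.20 in pTV, 0.163 to 0.829 in KTR and 0.0837 to 0.177 in the other 3 groups. The part of these markers in the differences of the contractile genes was not tested.

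**Figure D3:**
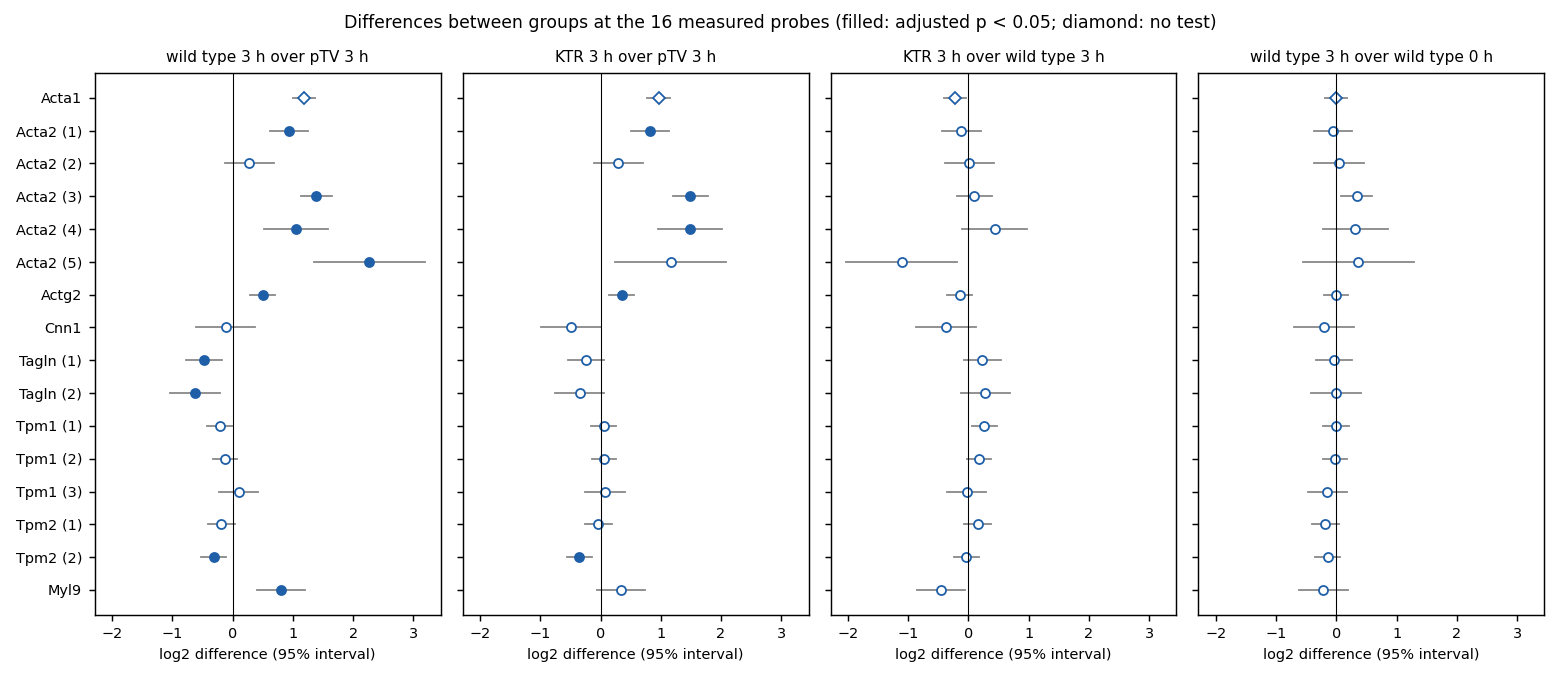
Log2 differences (horizontal axis) of the 16 measured probes (rows, numbered from the brightest where a gene has several) in the 4 tested comparisons, with 95% intervals. Filled symbols passed at an adjusted p under 0.05, and diamonds mark *Acta1*, which was not tested. The actins and *Myl9* lie to the right in both comparisons with pTV, *Tagln* to the left, and no probe is filled in the panels of KTR over wild type and of TNFα.

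TNFα for 3 h left these genes near their level at 0 h in cells with wild type p65. Of the 15 probes tested 0 passed, against 4.68% of all probes, 0 also with the 1.8-fold limit, against 1.55%, and 1 was under an unadjusted p of 0.05. The log2 differences lay between −0.21 and 0.37, with a median of −0.02 over the 15 probes beside −0.04 over all. For *Acta1* the difference was −0.01 (95% interval −0.19 to 0.18), as a description, and for the brightest *Acta2* probe −0.05 (95% interval −0.37 to 0.27, limma adjusted p = 0.921). With a block for the replicate number 2 *Acta2* probes passed, A_52_P210078 at 0.34 (limma adjusted p = 0.0415) and A_52_P239556 at 0.32 (limma adjusted p = 0.0424). With slides as random effects the former passed (limma adjusted p = 0.0417) and the latter did not (limma adjusted p = 0.259). pTV cells were not measured at 0 h here, so their level without TNFα is not known.

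The p65 forms were then compared with each other. In KTR over wild type 0 of 15 probes passed, against 0.235% of all probes, 0 with the 1.8-fold limit, against 0.167%, and 3 were under an unadjusted p of 0.05. The brightest probes of *Acta2* (−0.12, 95% interval −0.44 to 0.20) and *Tagln* (0.23, 95% interval −0.07 to 0.53) leave room for modest differences either way. With a block for the replicate number *Myl9* and A_52_P239556 of *Acta2* (0.43, limma adjusted p = 0.0468) passed, and with slides as random effects neither did (limma adjusted p = 0.227 for the latter). For K314/315R only counts past the ratio are given. Over wild type 2 of 16 probes were lower by over 1.8-fold (*Acta1* and A_52_P644232 of *Acta2*) and 0 higher. *Acta1* was chosen for this difference, and A_52_P644232 entered the fit only through wild type at 3 h, where it was highest. The count therefore cannot be compared with the 4.25% of all probes past either limit. Over pTV 2 of 16 were past 2-fold (A_52_P210078 and A_52_P239556 of *Acta2*), against 10.2%. In KTR over K314/315R 1 of 16 was past the ratio (*Cnn1*), against 6.18%. The median log2 difference of the 16 probes in K314/315R over wild type was 0.01, beside 0.02 over all probes.

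Other contractile genes, listed for comparison, moved in both directions in wild type over pTV. Of 10 tested genes of smooth muscle contraction 2 were higher, 2 were lower and 6 did not pass (median log2 difference 0.04), beside the 8.03% higher and 6.8% lower of all tested probes that apply to each of these lists. *Ppp1r14a*, which codes for the inhibitor CPI-17 of myosin phosphatase, was higher by 2.87 (limma adjusted p = 1.23e-05). Its log2 level was −1.77, −2.22 and −2.06 in wild type at 3 h and −4.37, −5.37 and −4.92 in pTV, where it was well above background on 1 of 3 arrays. *Flnc*, a muscle filamin, was lower by 1.15 (limma adjusted p = 3.40e-04) and *Smtn* (smoothelin) by 1.01 (limma adjusted p = 8.36e-06). The kinase of myosin light chain, *Mylk*, was higher by 0.56 (limma adjusted p = 0.0194).

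Of 15 tested sarcomeric genes 1 was higher, 1 was lower and 13 did not pass (median −0.05). The higher was *Actc1*, the cardiac alpha actin, at log2 levels of 5.18, 4.82 and 4.88 in wild type at 3 h, 4.93, 4.42 and 4.66 in KTR, 4.65 and 4.48 in K314/315R and 4.17, 3.74 and 3.63 in pTV. Wild type exceeded pTV by 1.11 (limma adjusted p = 0.00101) and KTR by 0.82 (limma adjusted p = 0.00799). The brightest probe of each of the 4 muscle actins was thus higher in wild type than in pTV, *Acta1* by 1.18 as a description. The *Acta2* probe A_51_P450957 did not pass (0.28, limma adjusted p = 0.407). Whether a probe also binds the RNA of another actin was not tested. The lower was *Ldb3*, a protein of the Z disc (−0.96, limma adjusted p = 0.0227). Of 19 tested genes of the nonmuscle actin cytoskeleton 0 were higher and 1 was lower (*Zyx*, the focal adhesion protein zyxin, −0.54), with *Actb* at −0.27 without passing (median −0.12).

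In the list of SRF, its cofactors and its immediate targets the genes that passed were lower in wild type than in pTV. Of 13 tested genes 0 were higher, against 8.03% of all tested probes, and 5 were lower, against 6.8% (median −0.41), namely *Ctgf* (−2.21), *Ankrd1* (−1.44), *Cyr61* (−1.07), *Fhl2* (−0.89) and *Fhl1* (−0.74). *Ctgf* and *Cyr61* code for matricellular growth regulators and *Ankrd1* for a muscle ankyrin repeat protein. *Ctgf* was 7.30, 6.60 and 6.96 in pTV and 4.54, 4.69 and 4.99 in wild type at 3 h. *Srf* itself (−0.17) and its cofactor *Mkl1* (−0.17) did not pass, and *Myocd* was not tested because it was not well above background on any array. After TNFα 5 of the 13 were higher in wild type cells, against 2.71% of all tested probes, and 0 lower, against 1.97% (median 0.26), with *Fos* (1.47, limma adjusted p = 0.00191), *Egr1* (1.04, limma adjusted p = 0.00354), *Ctgf* (0.81), *Junb* (0.74) and *Cyr61* (0.58). In KTR over wild type 0 of the 13 passed.

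Of 13 tested TGF-β signalling genes 2 were higher in wild type over pTV, the inhibitor *Smad6* by 1.13 (limma adjusted p = 4.20e-05) and the coreceptor *Tgfbr3* by 1.06 (limma adjusted p = 1.61e-04), and 2 were lower, *Tgfbi* by 0.70 and the receptor *Tgfbr2* by 0.48 (median −0.11). After TNFα *Skil* was higher by 0.60, and 2 were lower, *Smad6* by 0.92 (limma adjusted p = 0.00109) and *Tgfb3* by 0.55 (median −0.02). In KTR over pTV the counts were 3 higher and 2 lower of 10 for smooth muscle contraction, 1 and 1 of 15 for sarcomeric genes, 0 and 1 of 19 for the nonmuscle cytoskeleton, 0 and 5 of 13 for SRF and its targets, and 2 and 2 of 13 for TGF-β signalling. The shares over all probes there were 9.27% higher and 5.89% lower. After TNFα 1 gene of smooth muscle contraction was higher (*Smtn*, 0.38, limma adjusted p = 0.0345), 1 sarcomeric gene was lower (*Tnnt1*, a skeletal troponin T, −0.53, limma adjusted p = 0.0254), and 0 of the nonmuscle cytoskeleton passed. In KTR over wild type no gene of these 5 lists passed.

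**Figure D4:**
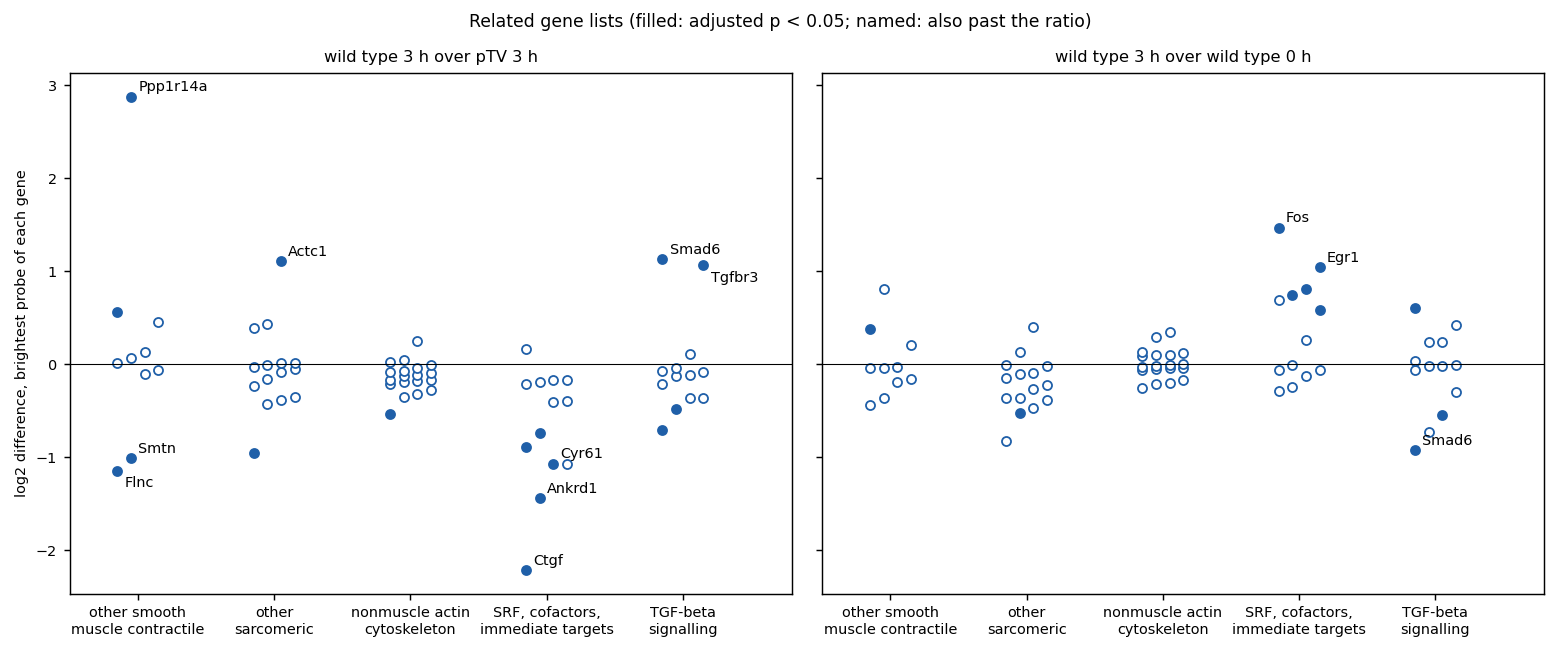
Log2 differences (vertical axis) of the brightest probe of each tested gene in 5 related lists (horizontal axis), for wild type over pTV at 3 h at the left and for TNFα in wild type cells at the right. Filled points passed at an adjusted p under 0.05, and named ones were also past the ratio. In the left panel *Ctgf*, *Ankrd1* and *Cyr61* lie below −1 and *Ppp1r14a*, *Actc1*, *Smad6* and *Tgfbr3* above 1, and in the right panel *Fos* and *Egr1* lie above 1.

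Among 19836 ranked probes with a gene name outside the set, the 5 whose levels over the 14 arrays were most like those of *Acta1* were *Fgfr2* (r = 0.96), *Samhd1* (0.94), *Spn* (0.94), *Rab19* (0.94) and *AU018778* (0.93). The 5 most like the brightest *Acta2* probe were *Gpr23* (r = 0.98), *Pik3r1* (0.98), *Actc1* (0.98), *Cav2* (0.97) and *H2-Q7* (0.97). At *Fgfr2* the group means of the log2 level were −1.46 in wild type at 0 h, −1.39 at 3 h, −1.58 in KTR, −1.84 in K314/315R and −2.04 in pTV, the mutants thus in the order seen at *Acta1*. At *Pik3r1* they were 0.21, 0.12, −0.01, 0.03 and −1.16 in the same order of groups, with pTV alone set apart as at *Acta2*. These genes were found by ranking the likeness itself, over arrays that share the groups and slides, and no test was made.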

How the data were processed

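Levels of RNA were measured on 14 one-colour Agilent Whole Mouse Genome arrays. The authors deposited 1 scanner file per array, written by Feature Extraction (9.1, per the processing notes of the submitters), with an intensity for each spot that the software corrected for background without scaling arrays to each other. A deposited table of normalized intensities was found to hold the mean intensity of each probe times 1 factor per array (0.837 to 1.20), to within 1% for 99.6 to 99.8% of probes, and was used as an alternative.

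Spots marked as outliers (1 to 326 per array) were left out, spots of a probe were averaged, and the log2 intensity relative to the 75th percentile of the array was taken. Tested were probes that stood well above background on all arrays of some group (22172 of 41174). Up to 19 spots per array were saturated, none of them of the contractile genes. Groups were compared with limma 3.58.1 in R 4.3.3 (files were read with the data.table package, version 1.17.8). A single two-sided fit held the 14 arrays, and p-values were adjusted over all tested probes (Benjamini-Hochberg). "Passed" means an adjusted p under 0.05, and a call needs in addition a ratio of 2 over pTV, or of 1.8 either way otherwise. A fold written with "at least" is a bound, used where a group had 0 arrays well above background. The mean of the bright group is set against a floor in the dim one, per array the weakest signal that counted as well above background or the probe's own signal if that was higher. *Acta1* was tested in no comparison, although a test in KTR over pTV had been planned. The fit was tested on simulated data. The number of arrays limits the precision.

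Among slides 1 to 3, where the replicate number is the slide, the deviations of same-number arrays from their group means correlated at 0.308 to 0.613 (18 pairs) and those of other pairs at −0.510 to 0.0954 (36), so the number pairs these arrays. For K314/315R the 8 same-number pairs had −0.101 to 0.411.

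The genes and lists were chosen with earlier results of these data known. Of each other list the counts are given, with genes named by the size of their difference among those called. Other named genes, such as *Srf*, *Smtn* and *Tnnt1* after TNFα, *Mkl1*, *Mylk*, *Ldb3*, *Zyx*, *Actb* and those of the likeness ranking's group means, were chosen after their values were seen. Alternatives were the background correction, the scaling, the filter on dim probes, outlier spots, slide blocks, the groups fitted, the call rule and each array left out. The array files supplied the gene names. Of the TGF-β list 1 gene is not reported here.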

Additional observations from a re-analysis of the deposited data

How the results depend on the processing

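For the contractile probes the counts called (adjusted p and ratio) were 3 in wild type over pTV, 2 in KTR over pTV, 0 in KTR over wild type and 0 for TNFα. Without the ratio they were 9, 5, 0 and 0. Probes well above background on all 14 arrays alone left 1 in wild type over pTV and 1 in KTR over pTV, since A_52_P644232 and A_52_P210078 of *Acta2* were then not tested. Normexp left 1 in each of these. With the ratio and an unadjusted p, 1 was called in KTR over wild type. Leaving out 1 array gave 2 (without pTV replicate 2, among others) to 4 in wild type over pTV, 2 to 3 in KTR over pTV, 0 to 1 in KTR over wild type (1 without KTR replicate 1) and 0 for TNFα. The replicate block kept these counts at 3, 2, 0 and 0.

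Over all probes, the 1118 calls in wild type over pTV, 1038 in KTR over pTV, 37 in KTR over wild type and 344 for TNFα became 326, 337, 1 and 23 with normexp and 651, 572, 10 and 226 with probes well above background on all arrays. Without the ratio 3287, 3361 and 1037 were called in the first, second and last. For KTR over wild type the call count was 1402 with no filter on dim probes, 10 with only the 2 groups, 91 with the replicate block, 107 with slides fitted as random effects and 238 at an unadjusted p. Leaving out 1 array gave 1022 to 1153, 998 to 1144, 32 to 137 (137 without KTR replicate 1) and 287 to 358. The causes were not tested.

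Of 1372 refits of tested differences of single probes 1304 kept their side of the threshold, 56 lost and 12 gained a pass. None that passed changed sign, while 50 that did not pass did. Of 1190 values given as descriptions 27 moved by more than the replicate SD, among them *Acta1* with normexp, at −0.63 in K314/315R over wild type, 0.10 in KTR over wild type, 0.99 in wild type over pTV, 1.09 in KTR over pTV and −0.29 for TNFα. The replicate block changed 7 calls, all given above. The slide as a random block changed 2, that of A_52_P210078 for TNFα and that of A_52_P644232 in KTR over pTV (limma adjusted p = 0.0394). Probes near background, such as A_52_P644232, limit what can be said of low levels.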
